A study of Homo sapiens with 4 samples.

Results

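The genes followed here belong to the contractile actin cytoskeleton and to the transcription that responds to it, 10 of the 18417 genes measured on these arrays. They were taken by symbol: TAGLN, ACTA2, CNN1, MYL9, TPM1, TPM2 and CALD1 as smooth muscle type contractile genes, and CCN1, CCN2 and ANKRD1 as targets of the coactivator YAP. Each gene had a single probe set annotated to it alone. The study used MDA-MB-231, an established line of human breast cancer cells with mesenchymal features, grown in medium with 10% fetal bovine serum. Cells received a FOXC1 expression plasmid or the empty vector by lipid transfection, and FOXC1 is a forkhead transcription factor. RNA of 2 samples per group, called biological replicates in the labels, was hybridised to 4 Affymetrix whole-transcript arrays. The labels do not say how long the plasmid was kept or whether clones were picked, nor that replicates came from separate transfections, so that the p-values measure only the spread between these samples. The FOXC1 transcript was not analysed here, which leaves the group labels without that check.

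The contractile genes encode actin filaments and the proteins that bind, brace or pull on them. Many are controlled by serum response factor (SRF), which binds CArG boxes and is switched on when its cofactors MRTF-A and MRTF-B are released from monomeric actin. YAP and its relative TAZ (gene WWTR1) respond to spreading and tension of the cell, are held back by the Hippo kinases, and act through the DNA-binding TEAD factors. CCN1, CCN2 and ANKRD1 are the targets most often used to read YAP activity, and SRF also acts on them. In breast epithelium such contractile genes are known from myoepithelial cells, and in tumours from the surrounding fibroblasts.

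Start site windows show the letters these factors read. RefSeq windows (GRCh38.p14, 250 bases before to 50 after the start) were found for 7 of the 10 genes, 12 windows in all, and not for TAGLN, MYL9 and CCN1. The TEAD motif GGAATG was searched on both strands and stood in 14% of 35116 windows of all genes. The CArG box stood in 1.29% of them, and a CArG box with 1 core letter other than A or T in 6.94%. The forkhead core GTAAACA stood in 3.42%. Both YAP target windows and 2 windows of contractile relatives are shown 5′ to 3′ on the gene's strand, since they carry most of the matches. Capitals mark GGAATG in CCN2 and ANKRD1, GGAATG and both near-CArG boxes in ACTA2, and both CArG boxes in ACTG2, the enteric smooth muscle actin. No matches overlapped.
CCN2 (chr6:131951323-131951622, minus strand): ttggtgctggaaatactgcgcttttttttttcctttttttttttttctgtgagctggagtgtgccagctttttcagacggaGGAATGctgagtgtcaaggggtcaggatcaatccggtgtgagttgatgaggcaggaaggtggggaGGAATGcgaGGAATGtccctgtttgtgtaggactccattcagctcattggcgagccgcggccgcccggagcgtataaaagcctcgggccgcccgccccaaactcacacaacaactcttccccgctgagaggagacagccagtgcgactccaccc
ANKRD1 (chr10:90921038-90921337, minus strand): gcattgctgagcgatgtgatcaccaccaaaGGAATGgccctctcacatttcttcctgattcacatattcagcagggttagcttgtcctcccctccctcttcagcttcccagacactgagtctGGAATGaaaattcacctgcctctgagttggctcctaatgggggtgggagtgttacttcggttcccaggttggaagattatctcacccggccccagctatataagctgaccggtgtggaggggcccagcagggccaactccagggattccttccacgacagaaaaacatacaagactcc
ACTA2 (chr10:88952724-88953023, minus strand): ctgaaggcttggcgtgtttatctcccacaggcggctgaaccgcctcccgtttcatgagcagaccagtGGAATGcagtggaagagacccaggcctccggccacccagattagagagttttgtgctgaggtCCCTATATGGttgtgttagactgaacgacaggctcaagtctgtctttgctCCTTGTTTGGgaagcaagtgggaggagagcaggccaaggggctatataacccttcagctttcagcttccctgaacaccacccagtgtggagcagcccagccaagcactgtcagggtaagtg
ACTG2 (chr2:73892758-73893057, plus strand): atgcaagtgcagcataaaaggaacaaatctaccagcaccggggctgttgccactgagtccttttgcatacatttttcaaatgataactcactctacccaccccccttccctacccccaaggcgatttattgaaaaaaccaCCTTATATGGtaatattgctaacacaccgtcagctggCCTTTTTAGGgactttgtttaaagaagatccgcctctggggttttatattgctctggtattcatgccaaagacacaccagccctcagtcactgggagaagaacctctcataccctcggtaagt

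CCN2 held 3 GGAATG matches in its window, which began at positions -169, -104 and -95 from the start, and ANKRD1 held 2, at -220 and -128. The ACTA2 window held 1, at -183. Its near-CArG boxes began at -121 and -71. The GTAAACA core was found in the other window of ACTA2 and in 1 of 4 windows of CALD1, and GGAATG in 2 of the CALD1 windows. Another CALD1 window held a near-CArG box at -26. The windows of CNN1, TPM1 and TPM2 held no match to any of the 4 patterns. Matches describe these letters only.

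Signals are linear PLIER values, an estimate of probe set brightness. Median signals were 492 and 489 on the vector arrays and 499 and 512 on the FOXC1 arrays. Pairs of arrays correlated at 0.998 within a group and at 0.989 to 0.99 between groups (log2 signal; the probe sets are no independent replicates). Markers known from MDA-MB-231 (VIM, CD44, KRT8, KRT18, EGFR and CAV1) lay between 4453 and 17018. All 6 changed, 2 higher and 4 lower, against 31.4% of all genes, with KRT8 1.21-fold and CAV1 1.22-fold lower and CD44 1.17-fold higher in FOXC1 cells. The part of these shifts in the results below was not tested. The hormone receptors ESR1 and PGR lay at 273 or less, below 277, the signal exceeded by all but the dimmest 25% of named probe sets. Differences below are FOXC1 minus vector on the scale of log2(signal + 16), tested with limma across all named probe sets with Benjamini-Hochberg adjustment at 0.05. Over all genes, the median difference was 0.03 and 31.4% passed, 15.9% higher and 15.5% lower in FOXC1 cells. Folds are taken on that scale, which understates the change of dim genes. Of the called genes 50.6% were higher, and 33.9% when each array was centred on the median of all its rows. Such shares are high, so a count of small changes says little by itself, and 3.02% were called with a change of at least 1.5-fold, 0.88% higher and 2.14% lower. The gene lists below, markers apart, are also brighter than most genes. Median signals were 804 for all genes, 2295 for the 10 genes, 3412 for their paralogs and 2864 for other YAP targets. Standard errors were smaller for bright genes, so that their small changes pass more readily and all genes are not a like background.

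Most of the 10 genes were higher in FOXC1 cells, by modest amounts. In all, 7 rose, 4 of 7 contractile genes and 3 of 3 YAP targets, against 15.9% of all genes (31.4% in either direction). The tropomyosin gene TPM2 fell, 1 of 10 against 15.5%. ACTA2 and CNN1 did not pass. The median log2 difference of the 10 was 0.29. TAGLN and ANKRD1 rose by at least 1.5-fold, 2 of 10 against 0.88% of all genes (3.02% in either direction). In 9 of the 10 both FOXC1 arrays lay outside the range of the vector arrays, against 63.5% of all genes. The 7 rises kept their direction and call in all alternatives in which the gene was tested. The size of their p-values depended on the variance trend. Without it their limma adjusted p-values ran from 0.00172 for TAGLN to 0.0263 for MYL9 and 0.0331 for CCN1. These are bulk RNA measurements, in which a change in the number of cells expressing a gene and a change in RNA per cell cannot be told apart.

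**Figure D1:**
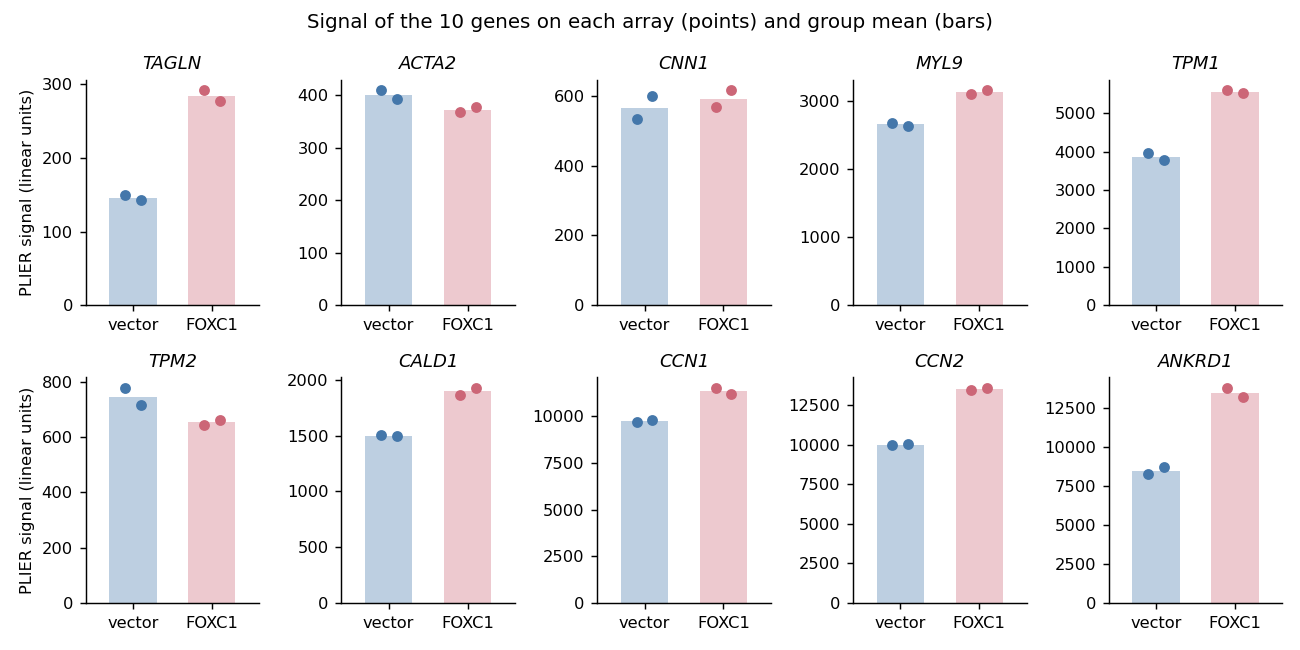
Linear PLIER signal of each of the 10 genes, with 1 point per array, bars for the mean of 2 arrays per group, and an axis from 0 for each gene. Vector and FOXC1 points are separate in every gene but CNN1, and ACTA2 and TPM2 are lower in FOXC1 cells.

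TAGLN, the actin-crosslinking protein transgelin, showed the largest relative change of the 10. Its signal was 149 and 143 on the vector arrays and 291 and 277 on the FOXC1 arrays. Both FOXC1 values lay far above both vector values. The vector signals were well under the 25th percentile of 277, and the FOXC1 signals at or just above it. The rise was 1.86-fold (log2 0.89 ± 0.10 SE, limma adjusted p = 3.92e-07). A filter at that percentile leaves TAGLN out, and its log2 difference ranged from 0.73 to 0.96 over the other alternatives.

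TPM1 encodes an alpha tropomyosin that lies along actin filaments and governs myosin's access to them. Its signal was 3955 and 3777 in vector cells and 5598 and 5538 in FOXC1 cells. The groups were far apart compared with the spread within them. TPM1 rose 1.44-fold (log2 0.52 ± 0.03 SE, limma adjusted p = 4.28e-11). TPM2, the beta tropomyosin gene, went the other way, with signals of 778 and 717 in vector cells and 644 and 664 in FOXC1 cells. The 2 vector arrays differed more from each other than the FOXC1 arrays did, and the groups did not overlap. Its fall of 1.14-fold (log2 -0.19 ± 0.07 SE, limma adjusted p = 0.0395) was close to the threshold. It no longer passed when vector replicate 1 (adjusted p = 0.412), vector replicate 2 (0.0601) or FOXC1 replicate 1 (0.0837) was left out, nor in 3 other alternatives.

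CALD1 encodes caldesmon, which binds actin, tropomyosin and myosin and restrains contraction. Its smooth muscle form and the shorter form of other cells were not told apart. Signals were 1502 and 1493 in vector cells and 1865 and 1925 in FOXC1 cells, without overlap. CALD1 rose 1.26-fold (log2 0.34 ± 0.05 SE, limma adjusted p = 5.96e-06). MYL9, a regulatory light chain of nonmuscle and smooth muscle myosin, read 2678 and 2633 in vector cells and 3108 and 3154.5 in FOXC1 cells. This too was a separation of the groups, by a smaller step. MYL9 rose 1.18-fold (log2 0.24 ± 0.04 SE, limma adjusted p = 3.34e-05).

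ACTA2 and CNN1, the alpha smooth muscle actin and calponin genes often used as markers of smooth muscle and myofibroblasts, did not rise with the others. ACTA2 signals were 409 and 394 in vector cells and 369 and 377 in FOXC1 cells. They did not overlap and were slightly lower in FOXC1 cells, but the difference did not pass (log2 -0.10 ± 0.08 SE, limma adjusted p = 0.375). The 95% interval of the FOXC1 to vector ratio ran from 0.829 to 1.05. CNN1 signals were 533 and 600.1 in vector cells and 568 and 615 in FOXC1 cells. Here the groups overlapped, and replicates differed more than group means (log2 0.06 ± 0.08 SE, limma adjusted p = 0.581). Its ratio interval ran from 0.936 to 1.17. These intervals leave out the size of rise seen in TAGLN, TPM1 and CALD1. In the alternatives ACTA2 stayed uncalled, with log2 differences from -0.15 to -0.08.

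The YAP targets ANKRD1, CCN2 and CCN1 were bright and rose in this order of size. ANKRD1 is an ankyrin repeat protein of the sarcomere and nucleus in muscle, and in cultured epithelial cells a standard YAP reporter. Its signal was 8257 and 8708 on the vector arrays and 13757.5 and 13181 on the FOXC1 arrays. The lowest FOXC1 array was well above the highest vector array. ANKRD1 rose 1.59-fold (log2 0.67 ± 0.03 SE, limma adjusted p = 3.92e-14).

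CCN2, a secreted matrix-associated protein also called CTGF, read 9955 and 10042 in vector cells and 13435 and 13559.8 in FOXC1 cells. Replicates were within a small part of the group difference. CCN2 rose 1.35-fold (log2 0.43 ± 0.02 SE, limma adjusted p = 1.68e-12). CCN1, its relative also called CYR61, read 9701 and 9789 in vector cells and 11508 and 11175.5 in FOXC1 cells. The separation was again complete, while the step was the smallest of the 3. CCN1 rose 1.16-fold (log2 0.22 ± 0.02 SE, limma adjusted p = 2.52e-07). Their 95% log2 intervals, 0.61 to 0.72 for ANKRD1, 0.39 to 0.48 for CCN2 and 0.17 to 0.27 for CCN1, did not overlap; the differences between genes were not tested.

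**Figure D2:**
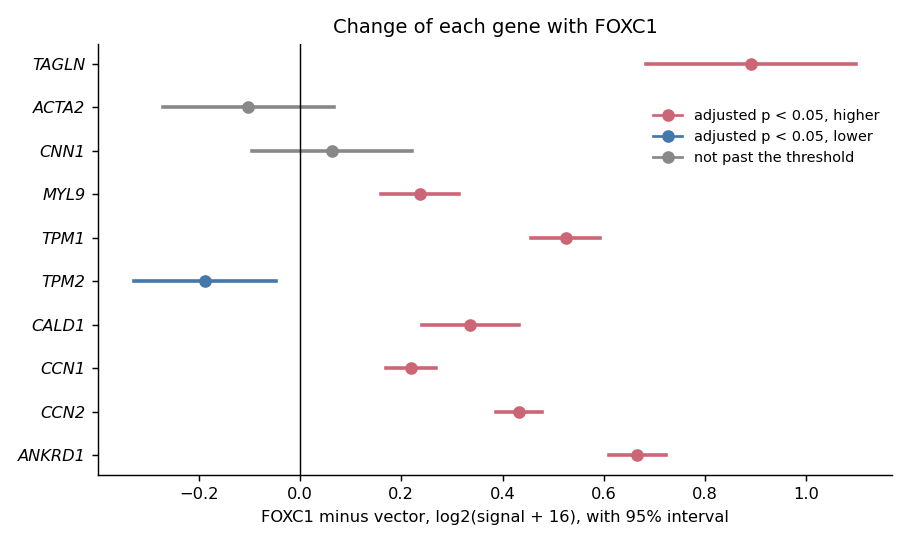
FOXC1 minus vector difference of each gene on the scale of log2(signal + 16), with the 95% interval from limma (2 arrays per group). The 7 genes that rose lie right of 0 with their whole interval, TPM2 lies left of it, and the intervals of ACTA2 and CNN1 include 0.

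Close relatives of the 10 genes widened the view to whole protein families. Of 21 family paralogs 20 had a probe set of their own (TPM3 was not analysed here). Of these 8 rose and 0 fell, against 15.9% and 15.5% of all genes, with a median log2 difference of 0.10. With limma at an unadjusted p under 0.05 the falls also numbered 0.

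Among actins, ACTG2 changed most. This smooth muscle actin of gut and bladder read 1709.95 and 1595 in vector cells and 2651 and 2773 in FOXC1 cells. It rose 1.64-fold (log2 0.71 ± 0.05 SE, limma adjusted p = 7.3e-11), while ACTA2 did not pass. The cardiac actin gene ACTC1 rose 1.25-fold and the skeletal actin gene ACTA1 1.14-fold. The cytoplasmic actins ACTB (log2 0.05 ± 0.02 SE) and ACTG1 (log2 0.03 ± 0.02 SE) did not pass with the values as deposited. Both passed, higher, when each array was centred on its named probe sets, a setting added after seeing the data, and ACTB also without vector replicate 2, without FOXC1 replicate 1 and with the mean of a gene's probe sets. ACTG1 turned to -0.013 when centred on all rows. Actin genes share long near-identical coding stretches, so that their probe sets may not be fully separate measures.

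In the other families TAGLN2, the broadly expressed transgelin, rose 1.18-fold, and the neural TAGLN3 did not pass (log2 0.05 ± 0.08 SE). The calponins CNN2 and CNN3 did not pass, like CNN1, with log2 differences of 0.04 and -0.02. The tropomyosin TPM4 did not pass either (log2 0.04 ± 0.03 SE), so that TPM1 was the only rise among the 3 tropomyosins measured. The directions of CNN2, CNN3 and TPM4 turned in 1 or more alternatives. Nonmuscle myosin light chains MYL12B (1.14-fold), MYL12A (1.08-fold) and MYL6 (1.07-fold) rose, and MYL6B did not pass (log2 -0.08 ± 0.05 SE). Without a variance trend none of these 3 rises passed (adjusted p = 0.0505, 0.126 and 0.226). MYL6 also did not pass under quantile normalization (0.147) or with all rows tested (0.086). MYL6 did not pass when FOXC1 replicate 1 was left out (adjusted p = 0.11), and neither MYL12A nor MYL6 did when each array was centred on all its rows (0.164 and 0.329). Of the CCN family, CCN3 rose 1.20-fold, and CCN4, CCN5 and CCN6 did not pass (log2 0.07, 0.12 and 0.03). ANKRD2 and ANKRD23, muscle relatives of ANKRD1, did not pass, with log2 differences of 0.21 and 0.12, and ANKRD2 passed without FOXC1 replicate 1 (adjusted p = 0.0189).

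Other genes regarded as YAP and TEAD targets included more rises than falls. Of 19 measured, 10 rose and 3 fell, against 15.9% and 15.5% of all genes, with a median log2 difference of 0.13. The rises numbered 6 without a variance trend and 7 when each array was centred on all its rows. NUAK2, a kinase that feeds back on Hippo signalling and on myosin, read 1031 and 1025 in vector cells and 2075 and 1969 in FOXC1 cells and rose 1.95-fold (log2 0.96 ± 0.05 SE, limma adjusted p = 2.09e-12). The stress gene GADD45A rose 1.55-fold and the coagulation factor gene F3 1.34-fold. ASAP1, a regulator of ARF GTPases at focal adhesions, fell 1.35-fold. The other 2 falls were NT5E (1.23-fold) and PTPN14 (1.11-fold), which were picked after their values were seen. GGAATG stood in 7 of the 16 RefSeq windows of this list (43.8%), from 14 genes, against 14% of all windows. Its share was 25.5% for the MRTF-SRF cytoskeletal genes described below, 19.4% for paralogs, 12.9% for Hippo genes and 7.69% for SRF ternary complex targets. The CArG box stood in 18.2%, 22.6%, 0% and 23.1% of their windows, in the same order. It stood in 0% of the windows of the other YAP targets, against 1.29% of all windows. The part of these motifs in the changes was not tested.

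The transcripts of YAP and TAZ themselves moved against these targets. YAP1 read 6021 and 6291 in vector cells and 4636 and 4506 in FOXC1 cells, and fell 1.35-fold (log2 -0.43 ± 0.03 SE, limma adjusted p = 6.76e-10). WWTR1, which encodes TAZ, read 7229 and 7570.0 in vector cells and 5046 and 4916 in FOXC1 cells, and fell 1.48-fold (log2 -0.57 ± 0.03 SE, limma adjusted p = 3.42e-12). All FOXC1 arrays lay below all vector arrays in both genes. Both falls kept their call in all alternatives. These arrays measure RNA, and the amount, phosphorylation and nuclear share of the proteins were not measured.

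Of the 23 Hippo pathway genes measured, 5 rose and 6 fell, against 15.9% and 15.5% of all genes, with a median log2 difference near 0. The rises of LATS2 and AMOTL2 are counted here and also among the other YAP targets. WWC1, an upstream activator of the LATS kinases, rose 1.29-fold and AMOTL2, which binds YAP and is also one of its targets, rose 1.20-fold. Besides YAP1 and WWTR1, the falls were VGLL4 (1.16-fold), NF2 (1.14-fold), MOB1B (1.13-fold) and STK3 (1.10-fold). LATS2 (1.13-fold) and STK4 (1.07-fold) rose. VGLL4, NF2, MOB1B, STK3, LATS2 and STK4 were picked after their values were seen and were not followed by themselves through the alternatives. Of the TEAD genes, looked at after their values were seen, TEAD1 rose 1.06-fold (limma adjusted p = 0.0284), and TEAD2, TEAD3 and TEAD4 did not pass (log2 -0.15, 0.07 and -0.03). The TEAD1 call was weaker than those of WWC1 and AMOTL2 and was not followed by itself through the alternatives. The number of rises in this pathway was 3 without vector replicate 1, and the number of falls 2. It was 3 rises without vector replicate 2 and without FOXC1 replicate 1.

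Other smooth muscle and MRTF-SRF cytoskeletal genes did not rise as a group. Of 20 measured, 4 rose and 6 fell, against 15.9% and 15.5% of all genes, with a median log2 difference of -0.01. PALLD, the actin-bundling protein palladin, read 2833 and 2774 in vector cells and 3894 and 3766 in FOXC1 cells and rose 1.36-fold (log2 0.45 ± 0.04 SE, limma adjusted p = 2.9e-09). FHL2, a LIM protein that travels between adhesions and nucleus, rose 1.15-fold, and did not pass without a variance trend (adjusted p = 0.053). Vinculin, VCL, which links adhesions to actin, fell 1.20-fold and synemin, SYNM, an intermediate filament protein, fell 1.15-fold. SYNM did not pass when vector replicate 1 (adjusted p = 0.157) or FOXC1 replicate 2 (0.0817) was left out. Without vector replicate 1 the falls in this list numbered 3.

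SRF targets that depend on its other partners, the ternary complex factors of the ERK pathway, included several falls. Of 10 measured, 5 fell, against 15.5% of all genes, with a list median of -0.17. SRF itself rose 1.08-fold (log2 0.12 ± 0.03 SE, limma adjusted p = 0.00566), the only rise, against 15.9% of all genes. The immediate early genes FOSB (2.17-fold), FOS (2.14-fold), EGR1 (1.29-fold) and NR4A1 (1.22-fold) fell. SRF did not pass with vector replicate 2 left out, nor NR4A1 with vector replicate 1 left out (adjusted p = 0.106).

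**Figure D3:**
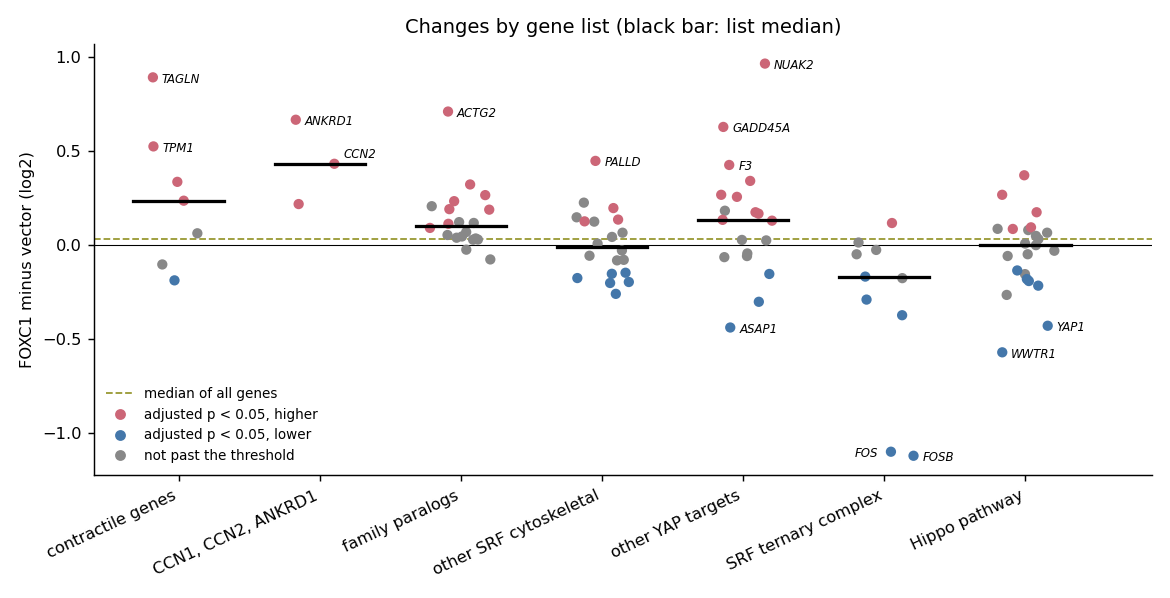
FOXC1 minus vector log2 difference of each measured gene by list, with 1 point per gene, black bars for list medians and a dashed line for the median of all genes (0.03). Medians lie at 0.24 and 0.43 for the contractile genes and the 3 YAP targets, at 0.13 for other YAP targets and at -0.17 for ternary complex targets.

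Markers of other cells in which contractile genes are typical mostly did not pass one by one. Where the summed levels of both FOXC1 arrays lay above both vector arrays, this depended on a single gene. Of 8 fibroblast markers 1 passed, against 31.4% of all genes: DCN rose 1.55-fold at dim signals of 91.2 and 87.6 against 148 and 146. The 8 ranged from 40.5 for LUM to 834 for COL1A1 over all arrays. In 5 of the 8 both FOXC1 arrays lay above both vector arrays and in 0 below, against 6829 and 4869 of all 18417 genes. Taken in either direction, 5 of 8 is near the 63.5% of all genes. The median log2 difference was 0.13 against 0.03 for all genes. The summed signal of these 8 was 2200 and 2169 in vector cells and 2248 and 2343 in FOXC1 cells. DCN alone rose by more than the gap between the nearest of these sums, and without it the groups overlap. Of 8 smooth muscle and pericyte markers ACTG2 rose and CSPG4 fell 2.83-fold, and the sums were 5295 and 5104 against 5610.3 and 5797, also higher in FOXC1 cells. ACTG2 is the brightest of them and also a paralog described above. DES, the muscle intermediate filament gene, was at 1078 to 1146, RGS5 and NOTCH3 were at 478 to 595, and none of the 3 passed. The defining smooth muscle genes MYH11, LMOD1 and MYOCD were at 265 or less on all arrays and did not pass. Of 5 myoepithelial markers listed, KRT17 and TP63 had no probe set of their own and were not read. Of the 3 measured (KRT5, KRT14 and OXTR) 0 passed, with sums of 1884 and 1932 against 1784 and 2011. With limma at an unadjusted p under 0.05, 0 of these 3 passed. The part of such cells in the changes above was not tested.

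The genes beside each of the 10 on its chromosome mostly did not share its change. The 3 nearest measured genes on each side were taken in the order of the RefSeq gene table (GRCh38.p14), 60 in all. Of these 9 rose and 14 fell, against 15.9% and 15.5% of all genes, with a median log2 difference near 0. The rises were thus close to the share of all genes. TAGLN stood against its surroundings. All 6 of its nearest neighbours fell, by 1.18-fold to 1.49-fold: SIK3, PAFAH1B2 and SIDT2 on one side and PCSK7, RNF214 and BACE1 on the other. Among 10 neighbours on each side, a window chosen after these values were seen, 9 of 20 fell.

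CCN2 also lay among genes that fell. ENPP1, an ectoenzyme next to it, fell 1.66-fold from 6363 and 6341 in vector cells to 3854 and 3808 in FOXC1 cells, and MOXD1 on the other side fell 1.59-fold. Of its 6 neighbours 3 fell, STX7 among them (1.10-fold). Beside ACTA2, ANKRD22 fell from dim signals of 127 and 147 to 17.9 and 28.0, close to the offset of 16, so that its fold of 3.96 depends on the offset, and the death receptor gene FAS fell 1.42-fold, while STAMBPL1 and LIPA rose by 1.13-fold and 1.09-fold. Around ANKRD1, RPP30 and HECTD2 rose 1.12-fold and 1.27-fold, both less than ANKRD1 itself. Beside TPM1, LACTB rose 1.33-fold and RPS27L 1.14-fold, which were picked after their values were seen.

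**Figure D4:**
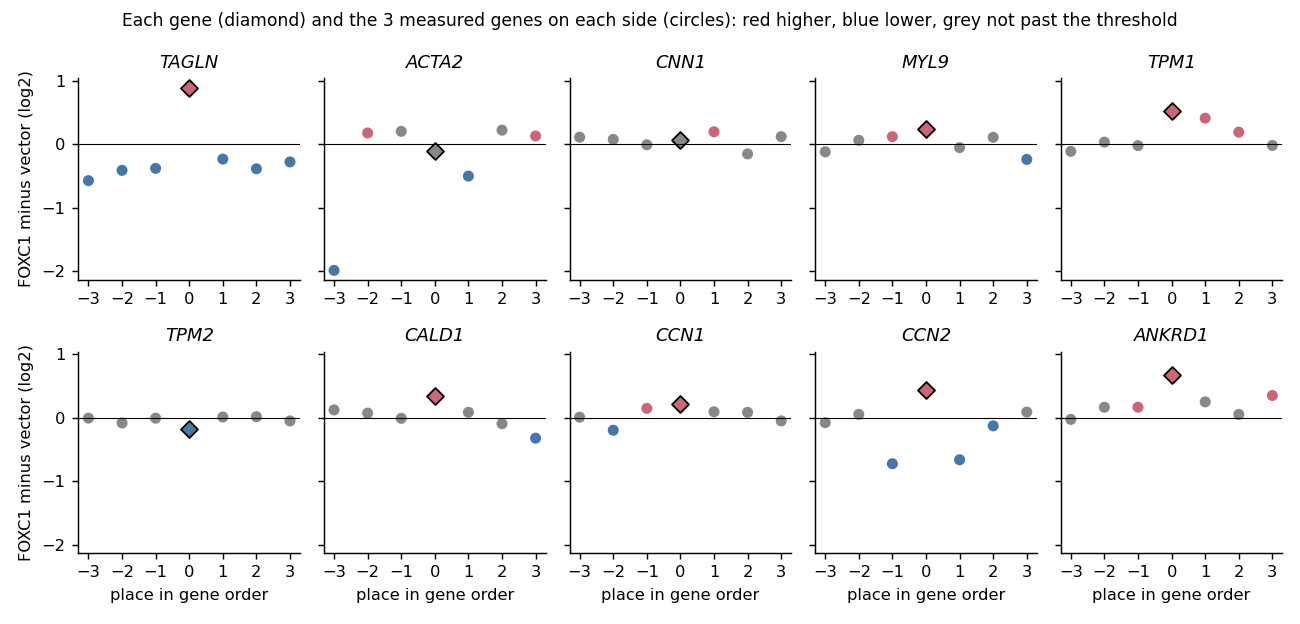
FOXC1 minus vector log2 difference (vertical axis) of each of the 10 genes (diamond, place 0) and of the 3 measured genes on each side in gene order (circles). TAGLN is far above its 6 neighbours, which all fell, and CCN2 stands above 2 adjacent genes that fell by at least 1.5-fold.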

How the data were processed

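RNA from 4 samples (2 vector, 2 FOXC1; 100 ng input per the labels' protocols) was measured on 1-colour arrays. The deposited intensity values are linear and already summarised per probe set; the authors used Affymetrix Expression Console and PLIER, per the submitters' processing notes, with no options or versions recorded there. The value table has 33297 rows. GEO's platform annotation gave 1 symbol to 19460, several to 1754 and none to 12083. The 21214 named probe sets were fitted as log2(signal + 16) in limma 3.58.1 (R 4.3.3; lmFit, eBayes with a variance trend; 2 residual and 18.1 prior degrees of freedom), two-sided, with Benjamini-Hochberg adjustment. Each of 18417 genes was read from its brightest probe set with 1 symbol. No batch was named in the sources used here, and with 2 arrays per group their number limits the precision.

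On simulated data with 21214 probe sets, 50 were changed at each size. Of changes of 0.25 on the log2 scale 66% were recovered, 98% of 0.5 and 100% of 1, with 5 false calls. The simulated spread followed the signal level alone, with independent noise, and far fewer probe sets changed than were called here. These figures therefore need not hold for these arrays. A further gene list was fixed at the start and is not reported here. The genes and lists were chosen with earlier results of these data known. Named were the 10 genes, their paralogs, up to 4 called genes of each other list with the largest change, defining markers, and neighbours where the gene or a neighbour passed and changed by at least 1.5-fold. Alternatives covered offset, low signal filter, scaling, moderation, replicate block, rows tested, probe set averaging and leaving out each array. Promoter windows are RefSeq's (GRCh38.p14).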

Additional observations from a re-analysis of the deposited data

How the results depend on the processing

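Over 15 alternative settings, 142 of 149 values of the 10 genes and 510 of 539 of the other named genes kept their direction and side of the threshold. The 7 rises passed in each setting that tested the gene. TPM2 lost its call when centred over named probe sets (log2 -0.16, limma adjusted p = 0.0637, a setting chosen after seeing the data), without a variance trend (log2 -0.19, 0.0907) and with all rows tested (log2 -0.19, 0.098), so that the 10 genes then held 0 falls. Leaving out 1 array at a time, it ranged from -0.24 to -0.13 and the falls from 0 to 1. CNN1 turned to -0.020 without vector replicate 1 (leave-one-out range -0.020 to 0.15). CNN3 turned to 0.015 without vector replicate 2 (leave-one-out range -0.063 to 0.015). CCN6 turned to -0.026 under quantile normalization, -0.012 under median centring, -0.030 without vector replicate 2 and -0.044 without FOXC1 replicate 2 (leave-one-out range -0.044 to 0.10). TPM4 turned to -0.012 under quantile normalization and -0.0060 under median centring, where CNN2 turned to -0.0021 and ACTG1 to -0.013. All genes called higher numbered 1461 without a variance trend, 1739 under median centring, 1858 with all rows and 1913 to 2951 leaving out 1 array; those called lower numbered 1790 without a trend. Hippo pathway rises numbered 3 under quantile normalization, median centring and all rows, 2 without a trend, and 3 to 5 leaving out 1 array, with 2 to 7 falls. Without a trend, paralog rises numbered 5, smooth muscle and MRTF-SRF rises 1 and falls 2, and other YAP target rises 6. Leaving out 1 array, smooth muscle and MRTF-SRF falls numbered 3 to 6. Ternary complex target rises numbered 0 under median centring and without a trend and 0 to 1 leaving out 1 array. The cause of these moves was not tested. Same-numbered arrays shared only a number (correlation of deviations -0.01). With the replicate number as a block, the 10 genes held 7 rises and 1 fall, and all genes 3339 and 3099. Leaving out an array leaves 1 in its group, assumed to vary like the others. Dim genes such as TAGLN are the least precise, and an offset of 64 or 1 moved its log2 difference to 0.73 or 0.96.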
